A study of Mus musculus with 4 samples.

Results

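The 9 genes described here, Dlk1, H19, Igf2, Cdkn1c, Meg3, Peg3, Mest, Plagl1 and Grb10, are imprinted genes with known roles in fetal and neonatal growth. They were found by row name among 22716 genes in single-cell count matrices of the mouse sciatic nerve, and all 9 were listed in all 4 matrices. The set was selected on values already measured in these same libraries, namely levels in neonatal, injured and uninjured nerve cells. What follows on those levels is therefore a description without a test. The question was which neonatal imprinted genes were seen again after nerve injury, and in which mesenchymal cells.

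Nerves came from wildtype CD1 mice, an outbred strain, and were dissociated with collagenase and trypsin before Drop-seq, in which messenger RNA of single cells is captured on barcoded beads and counted at its 3' end by unique molecular identifiers (UMIs). The first library came from the distal segment of adult nerve at 3 days post-injury (3 DPI) by resection, and the second from uninjured adult nerve. Both adult libraries were cleared with myelin removal beads. Of the neonatal libraries, 1 came from pups at postnatal day 3 to 4 and was purified by FACS for nucleated, living cells, and 1 came from pups at day 2 to 3 and was cleared with beads. Each condition or preparation is thus 1 library, no p-value was possible, and the effect of age or injury cannot be told apart from that of the library. The number of animals per library is not stated. The 95% intervals in the text cover counting error only.

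Imprinted genes are transcribed mainly from 1 parental copy, which is set in the germ line. Dlk1, Igf2, Peg3, Mest and Plagl1 are expressed from the paternal copy, whereas H19, Meg3 and Cdkn1c are expressed from the maternal copy, as is Grb10 in most tissues outside the brain. Many genes of this kind are abundant in fetal and newborn mesoderm, are shut down together as body growth slows, and can be re-expressed in regenerating muscle. The peripheral nerve holds mesenchymal cells in the endoneurium around the axons, in the perineurial sheath and in the outer epineurium, and after transection mesenchymal cells also build a bridge across the gap. The counts here do not separate the parental copies.

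By position in the mouse genome (GENCODE annotation of build GRCm38, equivalent to the mm10 named in the labels), 4 members lie on chromosome 7 and 2 on chromosome 12. H19 (7:142575529-142578143, minus strand) and Igf2 (7:142650766-142666816, minus strand) are 72.6 kb apart, and Cdkn1c (7:143458339-143461050, minus strand) lies 791.5 kb beyond Igf2. Dlk1 (12:109452823-109463336, plus strand) and Meg3 (12:109541001-109571726, plus strand) are 77.7 kb apart. Peg3 (7:6703892-6730431, minus strand), Mest (6:30723547-30748465, plus strand), Plagl1 (10:13060504-13131694, plus strand) and Grb10 (11:11930508-12038683, minus strand) are each far from the other members. H19 and Meg3 are annotated as long intergenic noncoding RNAs, and the other 7 are protein coding.

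Several of these genes also hold microRNAs, and 1 product pair is shown for each of H19, Mest and Igf2 because these small RNAs are further products of the same loci. H19 holds miR-675 in an exon (7:142577112-142577133 for the 5p and 7:142577078-142577099 for the 3p form, minus strand). Mest holds miR-335 in an intron (6:30741314-30741336 and 6:30741354-30741375, plus strand), and Igf2 holds miR-483 in an intron (7:142654968-142654989 and 7:142654932-142654952, minus strand). The mature sequences below are from RefSeq (GRCm38.p6), written 5' to 3' with the seed, bases 2 to 8, in capitals.
mmu-miR-675-5p: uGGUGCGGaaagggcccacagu
mmu-miR-675-3p: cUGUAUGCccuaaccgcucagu
mmu-miR-335-5p: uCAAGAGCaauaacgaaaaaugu
mmu-miR-335-3p: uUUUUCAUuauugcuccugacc
mmu-miR-483-5p: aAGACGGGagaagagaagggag
mmu-miR-483-3p: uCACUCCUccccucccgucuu
No 2 of these 6 share a seed. Drop-seq reads polyadenylated RNA, so the values below belong to the host transcripts, and the mature microRNAs were not measured.

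The libraries held 4513814 to 8123103 UMIs, and filters kept 1843 to 5422 cells with a median of 997 to 1821 UMIs. Pairs of libraries shared between 0 and 3 cell barcodes. Cells were clustered with the 9 members left out of the clustering genes, and classes were named from fixed markers with the suffix -like. Mesenchymal-like cells numbered 1206 at 3 DPI, 865 in the uninjured nerve, 625 in the neonatal FACS library and 862 in the neonatal bead library, with median UMIs of 2833.5, 2066, 2036 and 1326. Their 6 mesenchymal markers, Pdgfra and collagens among them, summed to 49503 to 129207 CPM, the UMIs of a gene per 1000000 UMIs of the class. Immune markers in the same cells summed to 6.58 to 86.3 CPM, Schwann markers to 105 to 278 CPM and endothelial markers to 99.4 to 156 CPM. Of the 9 immune markers, 5 were at 0 in mesenchymal-like cells of each neonatal library. The part of RNA from other cells in the results was not tested, and the level in immune-like cells is given beside low values as a rough measure of free RNA. Whether immune-like cells make some of these RNAs themselves was not tested.

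In neonatal mesenchymal-like cells all 9 members were at least 3-fold above the uninjured adult level in both libraries, whereas at 3 DPI only Dlk1, H19 and Plagl1 were. The 3-fold mark was the rule for calling a member higher, and CPM is relative to all RNA of the class. For the other 6, the 3 DPI level in mesenchymal-like cells as a whole lay between 0.606 and 2.46 times the uninjured level. The levels of each member are given below by its role.

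Among the secreted and surface growth signals, Igf2 encodes an insulin-like growth factor that drives fetal growth. Its level in mesenchymal-like cells was 52.6 CPM in the uninjured nerve, 60.3 CPM at 3 DPI, 5756 CPM in the neonatal FACS library and 5126 CPM in the neonatal bead library. The adult intervals (43.2 to 63.4 and 53.7 to 67.4 CPM) overlapped, and both neonatal levels were far above them. The 3 DPI level was 1.15 times the uninjured level (0.919 to 1.44), against 109.5 times and 97.5 times in the neonatal libraries. Thinning to 500 UMIs, here and below, left out the cells with fewer UMIs. In mesenchymal-like cells these were 98 at 3 DPI, 10 in the uninjured nerve, 50 in the FACS and 130 in the bead library. After thinning, the 3 DPI ratio of Igf2 was 2.31. Dlk1 encodes a membrane protein with EGF-like repeats, related to the Notch ligands and also shed as a soluble form. Its level was 18.8 CPM uninjured, 90.2 CPM at 3 DPI, 5099 CPM in the FACS library and 4684 CPM in the bead library. The 3 DPI interval (82.1 to 98.8 CPM) was above the uninjured one (13.4 to 25.7 CPM) and far below both neonatal levels. Dlk1 was thus 4.80 times the uninjured level at 3 DPI (3.45 to 6.83), and 271 and 249 times in the neonatal libraries.

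Grb10 encodes an adaptor that binds insulin and IGF1 receptors and dampens their signal. It measured 143 CPM uninjured, 352 CPM at 3 DPI, 498 CPM in the FACS library and 458 CPM in the bead library. Grb10 was the member with the smallest neonatal excess, and its 3 DPI interval (336 to 369 CPM) lay between the uninjured and neonatal ones. The ratio to the uninjured level was 2.46 at 3 DPI (2.17 to 2.79), 3.47 in the FACS library and 3.19 in the bead library. Cdkn1c encodes the cyclin-dependent kinase inhibitor p57, which restrains growth. It was at 228 CPM in the uninjured nerve, 138 CPM at 3 DPI, 1816 CPM in the FACS library and 1631 CPM in the bead library. Cdkn1c was the only member whose 3 DPI interval (128 to 148 CPM) was below its uninjured interval (208 to 249 CPM). It stood at 0.606 times the uninjured level at 3 DPI (0.539 to 0.682) and at 7.98 and 7.16 times in the neonatal libraries. The uninjured cells included 67 perineurial-like ones, its highest class there, whereas no 3 DPI cluster was so named. The part of this class in the 3 DPI ratio was not tested.

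The noncoding members were the most abundant of the set after injury. H19, a noncoding RNA known to restrain growth, was at 184 CPM uninjured, 1619 CPM at 3 DPI, 6231 CPM in the FACS library and 7469 CPM in the bead library. None of these intervals overlapped, and the 3 DPI value lay between the uninjured and the neonatal ones. H19 had the largest ratio of the 9 at 3 DPI, 8.81 (7.95 to 9.79), beside 33.9 and 40.7 in the neonatal libraries. Meg3, a noncoding RNA with growth-suppressing properties, was at 1093 CPM uninjured, 1980.4 CPM at 3 DPI, 5103 CPM in the FACS library and 4819 CPM in the bead library. It was the member most widely found in adult cells, with a UMI in 67.6% of uninjured mesenchymal-like cells. Its ratio to the uninjured level was 1.81 at 3 DPI (1.73 to 1.90), 4.67 in the FACS library and 4.41 in the bead library.

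Plagl1 and Peg3 encode zinc finger proteins that bind DNA, and Plagl1 is known to regulate other imprinted genes. Plagl1 measured 33.3 CPM uninjured, 122 CPM at 3 DPI, 589 CPM in the FACS library and 446 CPM in the bead library. All adult and neonatal intervals were apart. The ratios were 3.67 at 3 DPI (2.86 to 4.78), 17.7 in the FACS library and 13.4 in the bead library. Peg3 was at 137 CPM uninjured, 175 CPM at 3 DPI, 1468 CPM in the FACS library and 1043 CPM in the bead library. Its adult levels were close to each other, at a 3 DPI ratio of 1.27 (1.11 to 1.46), or 1.98 with cells thinned to 500 UMIs, and the neonatal ratios were 10.7 and 7.62. Mest, which encodes an enzyme of the alpha/beta hydrolase family and is known for its rise in growing fat tissue, was at 143 CPM uninjured, 232 CPM at 3 DPI, 2257 CPM in the FACS library and 1685 CPM in the bead library. Its adult intervals were apart, and its ratio at 3 DPI was 1.62 (1.43 to 1.85), against 15.8 and 11.8 in the neonatal libraries.

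**Figure D1:**
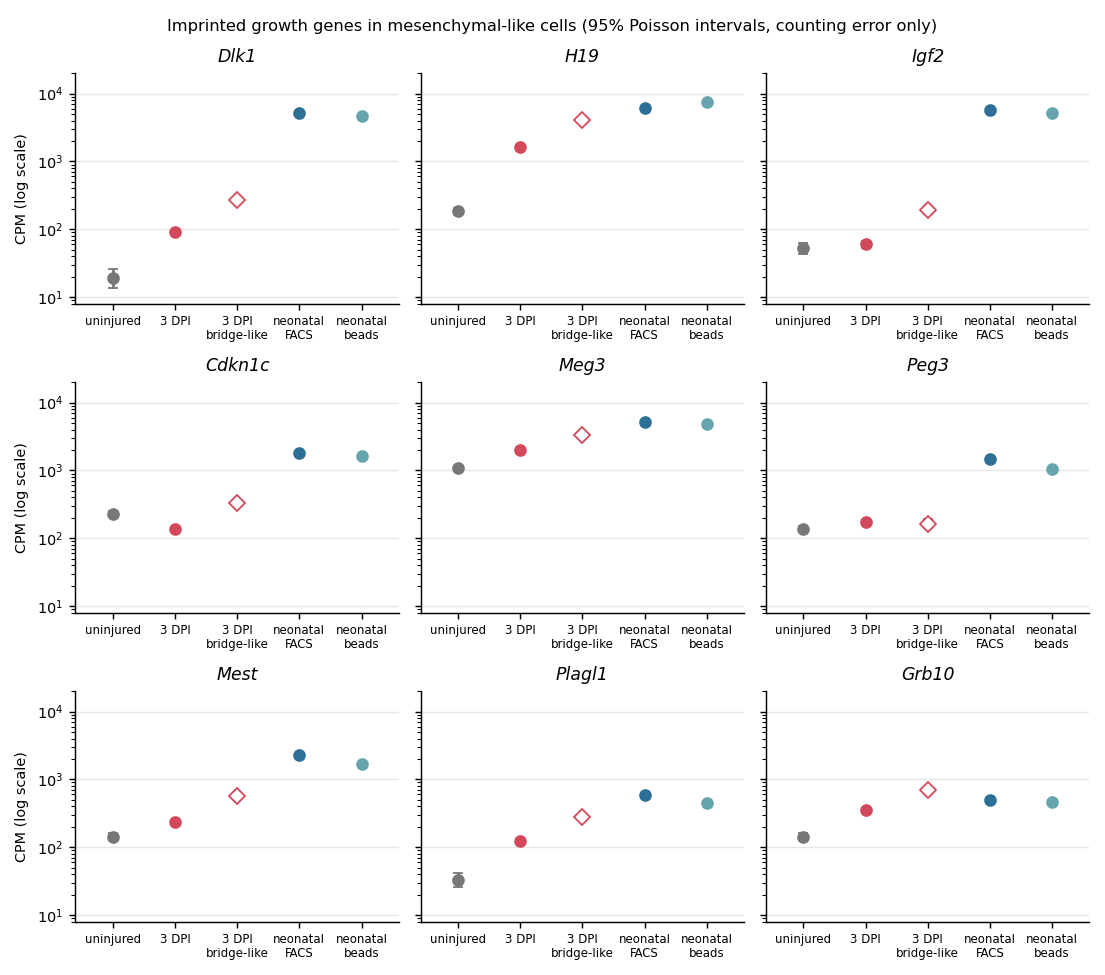
Level of each member in mesenchymal-like cells (y axis, CPM on a log scale; bars, 95% Poisson intervals of counting error) in the uninjured, 3 DPI, neonatal FACS and neonatal bead libraries, with the 3 DPI bridge-like cells as an open diamond. The neonatal points are at least 3-fold above the uninjured point for all 9 members, and the bridge-like diamond lies above the 3 DPI point for 8 of 9, Peg3 being the exception.

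Against all genes, the 3 members called at 3 DPI of 9 stood beside 1253 of 15099 tested genes, a background of 8.30%. The 9 of 9 in both neonatal libraries stood beside 533 of 12956 genes, or 4.11%. The 3 members higher both at 3 DPI and in both neonatal libraries stood beside 273 of 12899 genes, or 2.12%. These 3 comparisons share the uninjured library, and the members were chosen for levels of this kind, so no overlap was tested and nothing is read from these counts or from those by class below. The median ratio of the members was 1.81 at 3 DPI, 15.8 in the FACS library and 11.8 in the bead library, beside 1.16, 1.07 and 1.13 over all tested genes, a general shift on which each single ratio sits. With the mark at 5-fold in place of 3-fold, 1 member (H19) was called at 3 DPI.

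The 3 DPI level was also set against the neonatal level directly. In mesenchymal-like cells as a whole, Grb10 stood at 70.8% of the neonatal FACS level and 77.0% of the bead level, and Meg3 at 38.8% and 41.1%. H19 reached 26.0% and 21.7%, and Plagl1 20.7% and 27.4%. These 4 were the members nearest to their neonatal levels. Cdkn1c, Peg3 and Mest stood between 7.60% and 16.7%. At the other end, Dlk1 was at 1.77% and 1.93% and Igf2 at 1.05% and 1.18%. These were also the 2 members with the highest neonatal ratios over the uninjured nerve. Both measures hold the neonatal level, so a high neonatal ratio lowers the percentage by arithmetic, and nothing is read from the match.

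**Figure D2:**
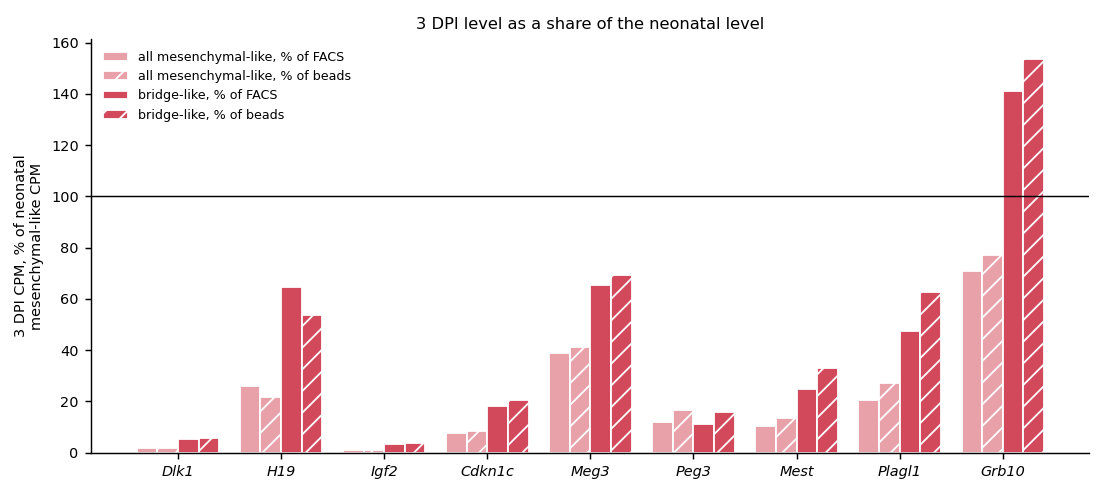
CPM at 3 DPI as a percentage of neonatal mesenchymal-like CPM (y axis) for all 3 DPI mesenchymal-like cells (light bars) and bridge-like cells (dark bars), against the FACS library (plain) and the bead library (hatched). Igf2 and Dlk1 stay below 6% throughout, H19, Meg3 and Plagl1 in bridge-like cells lie between 47.4% and 69.5%, and Grb10 in bridge-like cells is above the neonatal level.

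The members were not spread evenly over the 3 DPI mesenchymal cells. These divided into 282 endoneurial-like, 441 epineurial-like, 322 bridge-like and 161 proliferating cells, the last led by Top2a and other mitotic genes. Bridge-like cells were named from Lrrc15, Tnc, Postn, Cthrc1 and Col12a1, matrix and injury genes that summed to 7234 CPM there, 2077 CPM in endoneurial-like, 2269 CPM in epineurial-like and 618 CPM in uninjured mesenchymal-like cells. In the study Dlk1 and Mest themselves mark differentiating bridge mesenchymal cells, and neither was used here for clustering or naming. Dlk1, H19 and Igf2 nevertheless were among the 10 genes that set this cluster apart by fold, together with C1qtnf3, Lrrc15 and Dnm3os. No cluster of the uninjured nerve was bridge-like or proliferating, and none at 3 DPI was perineurial-like. Ratios over all mesenchymal-like cells thus compare unlike mixes of classes. The same 5 markers summed to 9475 and 9351 CPM in neonatal epineurial-like cells, so their level alone does not single out the injured nerve.

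Bridge-like cells held the highest 3 DPI level of 8 members, each with an interval apart from that of the next class. The share of all genes with their highest level in this class was not taken, so nothing is read from the count. H19 was at 4021 CPM there, 1082 CPM in proliferating, 874 CPM in endoneurial-like and 868 CPM in epineurial-like cells. Dlk1 was at 272 CPM in bridge-like, 81.5 CPM in proliferating, 33.1 CPM in epineurial-like and 8.38 CPM in endoneurial-like cells. The last value did not differ beyond counting error from the 5.16 CPM in immune-like cells, a class that should lack Dlk1. Igf2 was at 193 CPM in bridge-like, 50.1 CPM in epineurial-like, 16.8 CPM in endoneurial-like and 3.99 CPM in proliferating cells, and at 5.16 CPM in immune-like cells. Meg3 had a flatter profile, from 949.7 CPM in proliferating to 3349 CPM in bridge-like cells. Peg3 was the exception, with 371 CPM in epineurial-like cells (337 to 408) and 165 CPM in bridge-like cells (142 to 190.0).

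Taken over all kept cells of the 3 DPI library, bridge-like cells were 14.7% of the cells. They held 61.2% of its Dlk1 UMIs, 54.1% of Igf2, 53.4% of H19, 49.2% of Cdkn1c, 47.0% of Plagl1, 44.9% of Mest, 40.0% of Grb10, 35.2% of Meg3 and 19.6% of Peg3. Dlk1, H19 and Igf2 thus had over 50% of their UMIs in this cluster. Within it the members differed in how many cells held them. Meg3 had a UMI in 82.9%, H19 in 67.1% and Grb10 in 62.4% of bridge-like cells, against 18.0% for Dlk1 and 9.63% for Igf2, at a median depth of 2753.5 UMIs. The 218 Igf2 UMIs of the class came from 31 of its 322 cells. Thinned to 500 UMIs, the shares were 63.5%, 48.9%, 29.7%, 7.89% and 6.02%, and in immune-like cells 4.21%, 3.71%, 1.73%, 0.248% and 0.248%. This left out 56 bridge-like and 72 immune-like cells with under 500 UMIs. The members highest in bridge-like cells thus ranged from genes found in most cells of the class to genes found in few.

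Against uninjured mesenchymal-like cells of all kinds, 7 members were at least 3-fold higher in bridge-like cells, beside a background of 9.51% of 13222 genes. H19 was 21.9-fold (19.7 to 24.4) higher, Dlk1 14.4-fold (10.3 to 20.7), Plagl1 8.38-fold and Grb10 4.91-fold (4.29 to 5.62). Mest was 3.92-fold (3.41 to 4.51) higher, Igf2 3.67-fold (2.90 to 4.66) and Meg3 3.06-fold (2.91 to 3.23). The last 3 were near the mark. The members not called were Cdkn1c, at 1.47 (1.28 to 1.69), and Peg3, at 1.202 (0.994 to 1.45). With cells assigned from their own markers, or with at least 500 genes required per cell, 4 members were called, namely Dlk1, H19, Plagl1 and Grb10. Under these settings the direction of Cdkn1c turned, at 0.745 with at least 500 genes and 0.847 with cells assigned from their own markers, and Peg3 was at 0.944 under the latter. Bridge-like cells reached 141% and 154% of the neonatal mesenchymal-like level for Grb10, 65.6% and 69.5% for Meg3, 64.5% and 53.8% for H19 and 47.4% and 62.5% for Plagl1. For Dlk1 (5.33% and 5.80%) and Igf2 (3.35% and 3.76%) even bridge-like cells were far below neonatal cells.

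The other 3 DPI classes could be set against the same class of the uninjured nerve. In endoneurial-like cells 1 member was at least 3-fold higher, H19, which went from 145 to 874 CPM, 6.03-fold (5.10 to 7.16), beside a background of 9.42% of 12555 genes. By the same 3-fold mark 4 members were lower, beside 678 of the 12555 genes. Cdkn1c went from 229 to 19.3 CPM, a ratio of 0.0843 (0.0557 to 0.123), and Dlk1 from 32.8 to 8.38 CPM, a ratio of 0.256 (0.124 to 0.495). Mest and Igf2 stood at 0.319 and 0.332 times the uninjured endoneurial-like level. Endoneurial-like cells at 3 DPI thus combined more H19 with less Cdkn1c, Dlk1, Mest and Igf2 per UMI.

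In epineurial-like cells 3 members were at least 3-fold higher, beside a background of 5.12% of 12177 genes. Dlk1 went from 4.59 CPM, which is 4 UMIs, to 33.1 CPM, 7.21-fold (2.60 to 27.8). Plagl1 was 5.30-fold (3.22 to 9.23) and H19 4.499-fold (3.82 to 5.33) above the uninjured level. Meg3, Mest and Peg3 stood at 2.29, 2.11 and 1.90 times it, with intervals above 1, while Igf2, at 0.873 (0.589 to 1.30), did not differ beyond counting error. No member was 3-fold lower in this class, beside 300 of the 12177 genes. In proliferating cells, set against all uninjured mesenchymal-like cells, H19 was 5.89-fold (5.25 to 6.61) and Dlk1 4.33-fold (2.97 to 6.44) higher, beside a background of 12.6% of 13404 genes. Igf2 (0.0760) and Cdkn1c (0.165) were over 3-fold lower, beside 1260 of those genes. H19 was the member that stood at least 3-fold higher in all 4 comparisons by class.

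**Figure D3:**
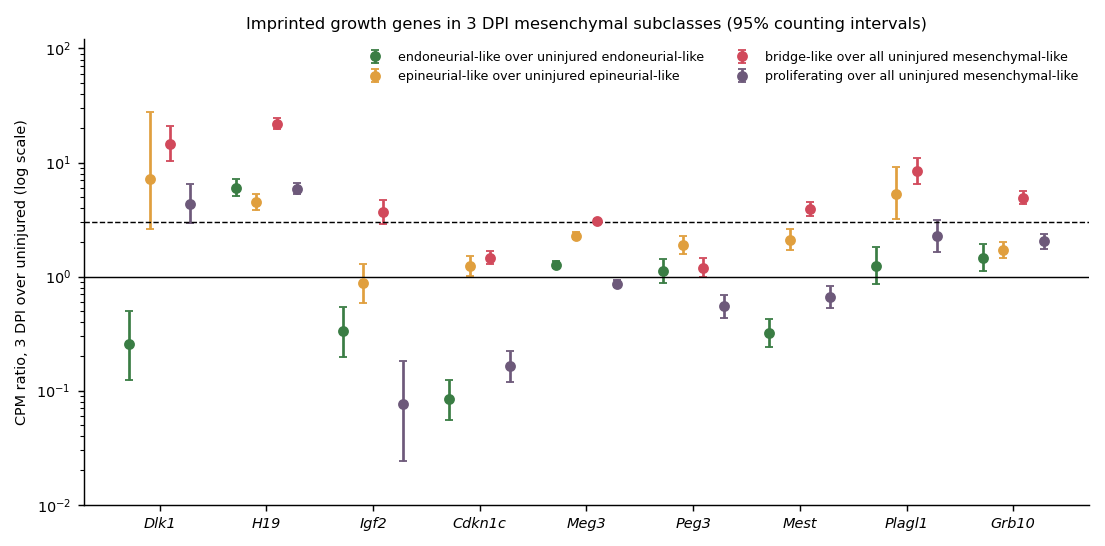
Ratio of CPM at 3 DPI to the uninjured nerve (y axis, log scale; bars, 95% counting intervals) by member, for endoneurial-like (green), epineurial-like (yellow), bridge-like (red) and proliferating (purple) cells, with lines at 1 (solid) and 3 (dashed). Dlk1, Igf2, Cdkn1c and Mest in endoneurial-like cells lie below 1, while 7 bridge-like points lie above the dashed line.

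Without the bridge-like cells, an alternative added after the data were seen, the 3 DPI mesenchymal-like cells called 1 member, H19, at 5.10 times the uninjured level. Dlk1 then stood at 2.06 and Plagl1 at 2.33. Igf2 went from 1.15 to 0.430 and Mest from 1.62 to 0.971, which turned their direction, and Cdkn1c was at 0.361. In the pooled remaining cells H19 was thus the member still past 3-fold, while by class Dlk1 and Plagl1 were past it in epineurial-like and Dlk1 in proliferating cells, as above.

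In neonatal nerve the members were high in every mesenchymal class. At the main clustering, epineurial-like cells had the highest level of 8 members in the FACS library and of 9 in the bead library. Cdkn1c was the exception, highest in the joined endoneurial and perineurial cluster of the FACS library and overlapping between both classes in the bead library. Dlk1 was at 6128 and 6476 CPM in epineurial-like cells and at 3977 and 3975 CPM in that joined cluster. At a finer clustering this cluster divided, with Dlk1 at 6205 and 6198 CPM in endoneurial-like and 1487 and 1517 CPM in perineurial-like cells. The finer endoneurial-like level of Dlk1 overlapped with the epineurial-like one in both libraries, and that of H19 was above it, at 7562 and 9498 CPM against 6715 and 7965 CPM. Perineurial-like cells were the lower of the pair for 8 members in both libraries, and Grb10 was the exception, at 448 and 429 CPM against 319 and 363 CPM, intervals that overlapped in the bead library. These neonatal counts by class were not taken over all genes, and nothing is read from them. In uninjured nerve the perineurial-like cells were, to the contrary, the highest class for H19 (432 CPM) and Cdkn1c (581 CPM), though they numbered 67.

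Neighbouring genes did not keep their proportions. H19 and Igf2 lie in 1 imprinted cluster with opposite parental expression, and so do Meg3 and Dlk1. The ratio of their UMIs depends on how well each 3' end is captured, so only its change between groups is described. Meg3 UMIs per Dlk1 UMI were 1.001 (0.971 to 1.03) and 1.03 (0.994 to 1.06) in the neonatal mesenchymal-like cells, 58.1 (42.4 to 82.0) in the uninjured and 22.0 at 3 DPI. H19 UMIs per Igf2 UMI were 1.08 and 1.46 in the neonatal cells, 3.50 (2.82 to 4.37) in the uninjured and 26.9 (24.0 to 30.2) at 3 DPI. At both loci the neonatal ratios were the lowest of these groups. The ratio of H19 to Igf2 was higher after injury than in either the uninjured or the neonatal nerve. In bridge-like cells the ratios were 12.3 for Meg3 to Dlk1 and 20.8 for H19 to Igf2, so the bridge-like cells were nearer to the neonatal proportion at the first locus than the uninjured nerve was, and farther from it at the second.

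Members were also counted per cell after thinning to 500 UMIs, so that the counted cells had equal depth. Cells with under 500 UMIs were left out, as above. A neonatal mesenchymal-like cell with a UMI of at least 3 members was the rule, at 95.8% (93.9 to 97.3) of cells in the FACS and 91.4% (89.1 to 93.3) in the bead library. In the uninjured nerve the share was 2.81% (1.81 to 4.15), and at 3 DPI it was 13.7% (11.7 to 15.9). Within 3 DPI it was 32.3% (26.7 to 38.3) in bridge-like, 13.3% in epineurial-like, 3.12% in proliferating and 1.92% in endoneurial-like cells, and 0.248% in immune-like cells. Immune-like cells of the neonatal FACS library were at 1.37%. The 9 members together made up 2.88% and 2.74% of all UMIs in neonatal mesenchymal-like cells, 0.987% in bridge-like and 0.203% in uninjured mesenchymal-like cells.

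**Figure D4:**
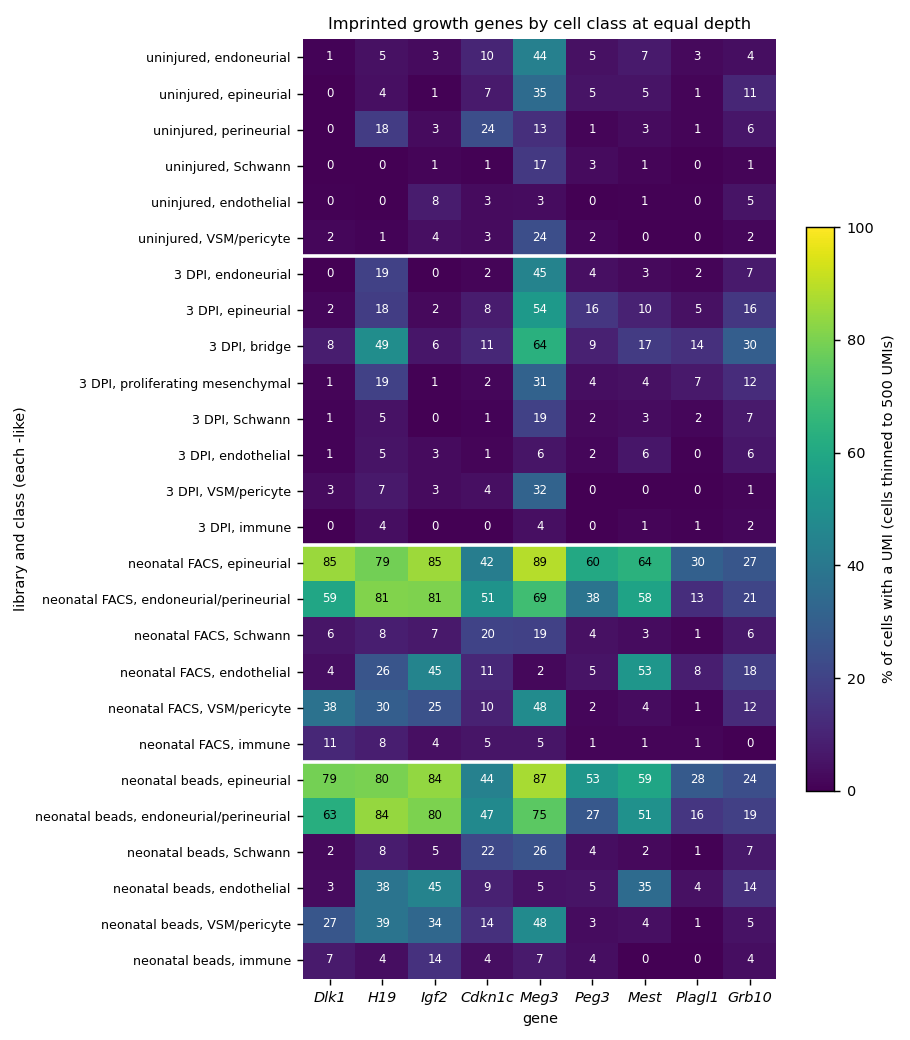
Detection of each member (colour and printed number, % of cells that hold any UMI of it after thinning to 500 UMIs) by class and library, with white lines between libraries. The highest share lies in a neonatal mesenchymal row for all members except Grb10, for which it lies in the 3 DPI bridge row (29.7%, printed as a whole number).

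Whether the members sat in the same cells was described by dividing mesenchymal-like cells by a Dlk1 UMI at this equal depth. At 3 DPI 30 of 1108 cells had a Dlk1 UMI, or 2.71% (9.29% before thinning), against 0.248% (0.630%) of immune-like cells, where the median depth was 928 UMIs. The Dlk1-positive 3 DPI cells carried more Plagl1 (3.70-fold, 1.54 to 7.65), Igf2 (3.68-fold, 1.14 to 9.18), Cdkn1c (3.39-fold, 1.42 to 6.99), H19 (3.08-fold, 2.37 to 3.96), Grb10 (2.99-fold, 1.71 to 4.90) and Meg3 (2.91-fold, 2.33 to 3.60) than the rest. Mest and Peg3, with 5 and 2 UMIs in those 30 cells, did not differ beyond counting error. Since 21 of the 30 cells were bridge-like, the excess was also read within that class, where H19 (1.67-fold, 1.25 to 2.19) and Meg3 (2.06-fold, 1.59 to 2.65) kept intervals above 1. In neonatal mesenchymal-like cells, of which 75.5% and 68.4% were Dlk1-positive at equal depth, 7 of the other 8 members had an interval above 1 in both libraries. Their ratios ran from 1.27 for Mest in the bead library to 2.76 for Plagl1 in the FACS library, and Grb10 was the exception. The same count over all genes was not taken at 3 DPI or in the neonatal libraries, so nothing is read from these counts. Read within epineurial-like cells and within the joined endoneurial and perineurial cluster, H19, Igf2 and Cdkn1c kept intervals above 1 in both libraries. The joined cluster holds endoneurial-like and perineurial-like cells that differed in Dlk1 level at the finer clustering. A division by Dlk1 there also divides these classes in part, and the contrast within each was not tested. Among epineurial-like cells the interval included 1 for Mest (0.956, 0.713 to 1.30) and Plagl1 (1.19, 0.682 to 2.19) in the bead library and for Peg3 (0.889 to 1.65) in the FACS library, and in the joined cluster of the FACS library for Meg3, Peg3 and Plagl1. Immune-like cells of the same libraries, which should lack the gene, were Dlk1-positive at 10.96% and 7.14%.

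**Figure D5:**
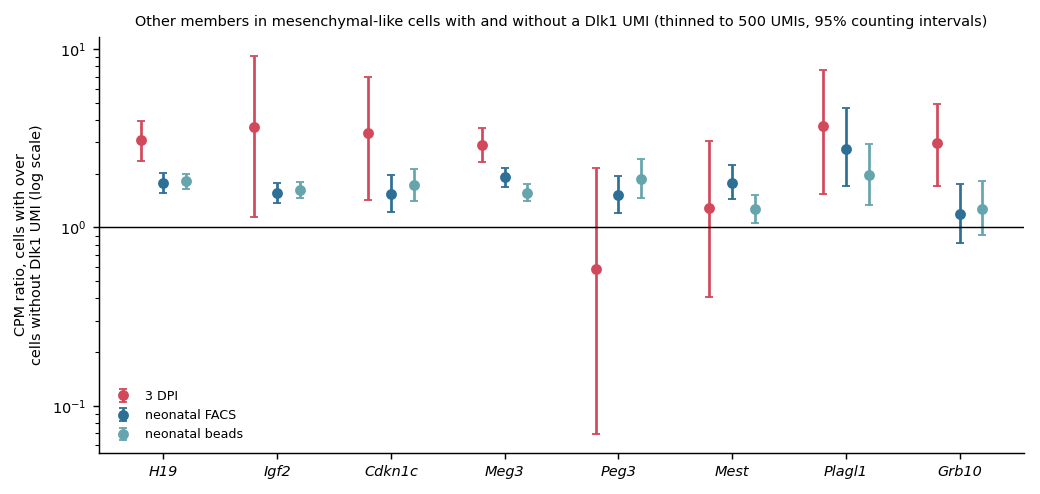
Ratio of CPM in mesenchymal-like cells with a Dlk1 UMI to those without (y axis, log scale; bars, 95% counting intervals; cells thinned to 500 UMIs) for the other 8 members at 3 DPI (red), in the neonatal FACS library (dark blue) and in the bead library (light blue). Ratios at 3 DPI are from 2.91 to 3.70 for 6 members, above the neonatal points, with wide bars because only 30 cells were Dlk1-positive.

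The set includes known restraints on division, so cells with at least 2 UMIs of 6 proliferation markers were set against the rest. At 3 DPI 207 of 1206 mesenchymal-like cells qualified, with a median of 6018 UMIs against 2394 in the others, and all 9 members had a lower CPM in the dividing cells. Igf2 was the farthest below, at 5.61 against 85.2 CPM, a ratio of 0.0659 (0.0298 to 0.127), followed by Cdkn1c at 0.280 (0.219 to 0.354) and Mest at 0.322 (0.270 to 0.383). Dlk1 was the least below, at 0.694 (0.556 to 0.862). In neonatal mesenchymal-like cells, with 26 and 30 dividing cells, 5 members had intervals below 1 in both libraries, namely Meg3 (0.497 and 0.318), Plagl1 (0.520 and 0.419), Peg3 (0.828 and 0.387), H19 (0.872 and 0.588) and Igf2 (0.798 and 0.861). Dlk1 was higher in dividing cells of the FACS library (1.23, 1.14 to 1.33) and lower in those of the bead library (0.766, 0.668 to 0.875). The dividing cells were the deeper ones in each library, and the part of depth in these ratios was not tested. At 3 DPI the other cells also included bridge-like cells, the class with the highest level of 8 members. Against endoneurial-like and epineurial-like cells alone, the proliferating cluster had more H19 and more Dlk1, as given above. The part of class in these ratios was not tested, and the same count over all genes was not taken.

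Outside the mesenchyme, the Schwann-like cells, which ensheath axons, were set apart by Cdkn1c. Cdkn1c was at 1289.6 and 1574 CPM in neonatal Schwann-like cells, 21.7 CPM in the uninjured and 6.65 CPM in the 3 DPI ones, where immune-like cells had 6.88 CPM. Its neonatal ratios of 59.4 and 72.5 ranked first among all genes tested in that class in both libraries. Within neonatal Schwann-like cells the level peaked at 4819 and 7379 CPM in a cluster whose leading genes included Egr2 and Pou3f1, the study's markers of premyelinating cells, with Cdkn1c itself first. Dividing neonatal Schwann-like cells had less of it, at 0.368 (0.317 to 0.425) and 0.342 (0.313 to 0.373) times the level in the others. In 3 DPI Schwann-like cells Cdkn1c was not detectable above the immune-like level at this depth, with 3 UMIs over 141 cells. For Dlk1, H19 and Igf2 the neonatal Schwann-like levels (90.4, 213 and 127 CPM in the FACS library) were close to those in immune-like cells (86.4, 173 and 135 CPM). Whether they are background was not tested. In the bead library they were 54.3, 187 and 102 CPM, against 50.5, 75.7 and 252 CPM in 38 immune-like cells. There H19 rested on 3 immune-like UMIs (15.6 to 221 CPM), an interval that holds the Schwann-like level, so a level above the immune-like one was not detectable at this depth.

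In endothelial-like cells, which line vessels, Igf2 was lower and Mest higher at 3 DPI than in the uninjured nerve. Lower Igf2 was not particular to this class, as it was also seen in endoneurial-like cells above. In the uninjured nerve Igf2 was highest in endothelial-like cells, at 327 CPM. Their level was 76.1 CPM at 3 DPI, 1470.3 CPM in the FACS library and 1434 CPM in the bead library. The uninjured signal came mostly from 1 of the endothelial-like clusters, led by Rbp7 and Gpihbp1 and at 1171 CPM, while the other clusters of more than 10 cells were at 41.3 and 71.4 CPM. At 3 DPI the endothelial-like level was 0.232 times the uninjured one (0.182 to 0.294), although the share of such clusters in each library bears on that value and was not tested. Mest went the other way, from 15.0 to 175 CPM, 11.7-fold (7.34 to 19.5), and was at 2064 and 1172 CPM in the neonatal libraries. Mest at 3 DPI was above the 31.0 CPM of immune-like cells. H19 at 3 DPI, by contrast, was at 92.2 CPM in endothelial-like cells, beside 99.7 CPM in immune-like cells. It was at 97.5 CPM in Schwann-like and 95.4 CPM in vascular smooth muscle and pericyte-like cells. Whether these values are background was not tested. In neonatal endothelial-like cells H19 was at 1430.2 and 1725 CPM, well above the 173 and 75.7 CPM of immune-like cells. Dlk1 was present in neonatal vascular smooth muscle and pericyte-like cells at 1649.7 and 982 CPM, and at 39.7 CPM in the uninjured and 47.7 CPM in the 3 DPI ones, which overlapped.

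Of 55 other imprinted genes on a fixed list, 49 were listed in the matrices. Of the 42 tested in mesenchymal-like cells at 3 DPI, 2 were higher, beside a background of 8.30%. At the same 3-fold mark 3 were lower, beside 731 of 15099 over all genes, and the median ratio was 1.22. In both neonatal libraries 10 of 40 were higher, beside the background of 4.11% over all genes, and 2 were lower. Over all genes, 1082 of 13378 were lower in the FACS library and 1001 of 13173 in the bead library, each counted alone. The 1 gene higher in both settings was Peg12, beside 2.12% of all genes. Dio3, which encodes the deiodinase that inactivates thyroid hormone and lies at the Dlk1 locus, went from 2.41 to 16.2 CPM at 3 DPI (6.73-fold, 2.77 to 21.3) and had 1 and 0 UMIs in the neonatal cells. Its 3 DPI level was 25.8 CPM in endoneurial-like and 13.3 CPM in bridge-like cells, so unlike Dlk1 and Meg3 it was not highest in the bridge-like cells. Rian, a noncoding RNA beyond Meg3, had ratios of 2.84 at 3 DPI and 5.56 and 4.47 in the neonatal libraries, and it was higher in bridge-like (91.1 CPM) than in endoneurial-like cells (43.2 CPM). Peg12 had 2 UMIs in the uninjured, 31 at 3 DPI (6.29-fold, 1.60 to 54.2) and 16 and 5 in the neonatal cells. Nnat, a small membrane protein gene, had 2 UMIs in the uninjured, 1 at 3 DPI and 20 and 33 in the neonatal cells (12.5-fold, 3.03 to 110.2, and 25.0-fold, 6.40 to 215). Dcn, which encodes the matrix proteoglycan decorin and is also among the mesenchymal markers, was at 0.242 times its uninjured level at 3 DPI and 0.252 and 0.276 times in the neonatal cells, and Ppp1r9a, a regulator of a phosphatase, was at 0.295 at 3 DPI.

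Around Igf2, 17 genes of the insulin-like growth factor axis were listed, of which 15 were tested at 3 DPI, with a median ratio of 0.908. Of these 1 was higher, beside 8.30% of all genes, and 1 lower, beside 731 of 15099 genes. Igfbp3, a binding protein for these factors, was 3.51 times the uninjured level (3.07 to 4.03) and Igfbp6, which prefers Igf2, 0.293 times (0.284 to 0.302). In the neonatal libraries 1 of 16 was higher, beside 4.11% of all genes, and 1 lower. Igfbp2 was at 171 and 172 CPM there, with 3 UMIs each in the uninjured and the 3 DPI cells, while Irs2, an insulin receptor substrate, stood at 0.197 and 0.239 times the uninjured level.

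Among 8 partners of fetal growth, such as RNA binding proteins of Igf2 messenger RNA, 6 were tested at 3 DPI. Of these 2 were higher, beside 8.30% of all genes. Hmga2, a chromatin protein of embryonic tissue, went from 0.482 CPM, 1 UMI, to 67.1 CPM (139-fold, 24.8 to 5512), above the 2.41 and 7.31 CPM of the neonatal cells. It was at 38.1 CPM in bridge-like, 21.3 CPM in endoneurial-like and 4.25 CPM in epineurial-like cells, so most of its 343 UMIs were in the proliferating cluster, which the uninjured nerve lacked. Ezh2, a histone methyltransferase, was 3.53 times the uninjured level at 3 DPI and 3.32 and 3.43 times in the neonatal libraries. Outside the proliferating cluster its 3 DPI level was 25.5 to 54.0 CPM by class, against 24.1 CPM in the uninjured cells, so no such class passed 3-fold. Igf2bp2 had ratios of 2.32, 4.28 and 5.25, and Igf2bp3 of 0.811, 12.8 and 11.7, so both passed 3-fold in the neonatal libraries and neither did at 3 DPI. In the neonatal libraries 5 of 6 were higher, beside 4.11% of all genes. Of 6 other inhibitors of cyclin-dependent kinases, 1 was higher at 3 DPI, beside the same 8.30%. This was Cdkn2c (5.68-fold, 3.00 to 12.1), which was also higher in both neonatal libraries. Most of its 3 DPI UMIs too were in proliferating cells, and it was at 25.7, 13.5 and 3.40 CPM in bridge-like, endoneurial-like and epineurial-like cells against 4.82 CPM in the uninjured ones. Cdkn1a, which encodes p21, was at 0.0670 and 0.0528 and Cdkn2a at 0.202 and 0.179 times the uninjured level in the neonatal cells, opposite to Cdkn1c. Of 11 tested genes of the Notch pathway, to which Dlk1 is related, 1 was higher at 3 DPI, again beside 8.30%. It was Notch4 (3.52-fold, 1.51 to 10.02), a receptor known mainly from endothelium. None of 8 was called in the neonatal libraries, beside 4.11% higher over all genes. Nothing is read from the counts of these lists.

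The genes most like each member were sought by the correlation of log2(CPM + 10) over 25 groups of at least 50 cells, each a class in a library, among 13308 genes. Groups of 1 library share that library, and the correlations are given without a p-value. The nearest to Dlk1 were H19_1 (0.888), Nrk (0.875) and Igf2 (0.873), and the nearest to H19 were H19_1 (0.885), Cdc16 (0.881) and Tmem167 (0.865). H19_1 and H19_2 are separate rows of the matrices whose names resemble H19. They held 45 and 24 UMIs in 3 DPI mesenchymal-like cells and 0 in the uninjured ones, and were not counted with H19. Igf2 was most like Dlk1 (0.873), H19_1 (0.857) and Srsf11 (0.845), and Cdkn1c most like Podxl2 (0.852), Mdk (0.823) and 6720427I07Rik (0.798). For Meg3 the nearest were Leprel2 (0.936), Chpf (0.924) and Efemp2 (0.922), and for Peg3 Ppib (0.915), Zcchc5 (0.910) and Pycr1 (0.904). Mest was nearest to Mdfi (0.904), Plagl1 (0.878) and H19_2 (0.870), Plagl1 to H19_2 (0.914), Pycr1 (0.894) and Mdfi (0.882), and Grb10 to Cdc16 (0.881), Gpr180 (0.856) and Krtcap2 (0.839). Among the members themselves, Mest and Plagl1 (0.878), Peg3 and Plagl1 (0.873) and Dlk1 and Igf2 (0.873) were the closest pairs, and Igf2 and Meg3 (0.399) were among the least alike.

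Plagl1 is the member known as a regulator of other imprinted genes, so the members' promoters were searched for the letters GGGGCCCC, taken as the core of the site that Plagl1 binds, which read the same on both strands. RefSeq promoter windows, from 250 bases before to 50 after each start, were at hand for 7 members. The letters were found in 354 of 32851 promoters of all genes (1.08%), or in 338 of 27025 genes (1.25%). Of the 7 members, which had 14 windows, 1 held them, Peg3. The stretch that holds them, at 7:6730590-6730649 on the minus strand (GRCm38.p6), runs from 230 to 171 bases before the start, with the motif in capitals.
Peg3: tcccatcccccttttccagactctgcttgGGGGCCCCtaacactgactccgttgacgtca
In these data Peg3 had its highest 3 DPI level in epineurial-like cells, as described above. A match is a description of the letters, and its absence in the other windows says only that these letters are not there.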

How the data were processed

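The deposited files held raw counts of UMIs per gene and cell barcode, which the authors made from Drop-seq reads by the Drop-seq Alignment Cookbook, for 2500 (3 DPI), 2000 (uninjured), 2500 (neonatal FACS) and 6200 (neonatal beads) barcodes. The labels name build mm10. The sources used here give no aligner version. Barcodes with under 200 genes, over 10% mitochondrial or over 5% hemoglobin UMIs were removed, then the 5% with the highest scrublet doublet score (scanpy 1.11.5). Cells were normalized with scran 1.30.0 and clustered in Seurat 5.3.0 (R 4.3.3, with 2000 variable genes, 20 components and resolution 0.4). This was done per adult library and jointly for the neonatal ones, and clusters were named from fixed markers. Members and listed genes were barred from the variable genes, except listed genes that are also markers, such as Dcn and Notch3.

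CPM are the UMIs of a gene summed over a class per 1000000 UMIs of that class, with exact Poisson intervals. Shares have Clopper-Pearson intervals and ratios exact conditional ones (scipy 1.17.1), all at 95%. A gene was tested when either class held over 3 UMIs of it, 0 was set to a floor of 3 UMIs per class, and at least 3-fold was called. Cells are not replicates, and no test across libraries was possible. The scripts were tested on simulated data.

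The members and lists were chosen with earlier results of these data known. All members are named. Other listed genes are named when past 3-fold with at least 20 UMIs, up to 6 per list by size of the 3 DPI ratio, and the 3 genes most like each member. Nerve cells at 9 DPI are not analysed here.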

Additional observations from a re-analysis of the deposited data

Results flagged for a closer look

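Dlk1 differed in direction between the mesenchymal classes. In endoneurial-like cells its 3 DPI level was 0.256 times the uninjured level (0.124 to 0.495; 35 UMIs uninjured and 13 at 3 DPI), and in epineurial-like cells 7.21 times (2.60 to 27.8; 4 and 39 UMIs). The difference was not tested, because each condition is 1 library.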

How the results depend on the processing

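No paired analysis was possible because each condition holds 1 library. Over 243 ratios of the members in mesenchymal-like cells as a whole, recomputed under 9 alternatives, 243 kept their direction, 242 their side of the 3-fold mark, and 4 moved by over 1.5 times, such as Igf2 at 3 DPI, at 2.31 with cells thinned to 500 UMIs. Grb10 in the bead library changed side, at 2.68, with cells assigned from their own markers, which left 8 members called in the neonatal libraries. At 5-fold, 1 member was called at 3 DPI, 1 in both settings and 3 in bridge-like cells. At 2-fold, 4 were called at 3 DPI. The bridge-like count was 4 with at least 500 genes per cell, where the class took in the proliferating cluster and an Inmt and Comp cluster and grew from 322 to 552 cells, and 4 with cells assigned from their own markers. Without the bridge-like cells, an alternative added after the data were seen, 1 member was called at 3 DPI and 1 in both settings. Over 9 alternatives the bridge-like ratios, which are not among those 243, ran from 12.1 to 22.4 for H19, from 7.34 to 18.8 for Dlk1 and from 1.72 to 6.61 for Igf2. Their direction turned for Cdkn1c (0.745 to 1.56) and Peg3 (0.944 to 1.64). Depth limits Dlk1, Plagl1 and Igf2 most, with 39, 69 and 109 UMIs in uninjured mesenchymal-like cells.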

Other observations

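Mest had unlike ratios between dividing and other cells in separate classes. In endothelial-like cells its level in dividing cells was 2.02 times that in the others at 3 DPI (1.49 to 2.76), 1.39 times in the neonatal FACS library (1.19 to 1.63) and 1.34 times in the bead library (1.18 to 1.51), with 43, 23 and 59 dividing cells. In dividing mesenchymal-like cells at 3 DPI the same ratio was 0.322, and in the neonatal ones 1.09 and 0.848. Dividing cells were deeper in each class, and whether the classes differ was not tested.

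In neonatal vascular smooth muscle and pericyte-like cells Meg3 was at 1696 and 1850.4 CPM, H19 at 1054 and 2023 CPM and Igf2 at 857 and 1137 CPM in the FACS and bead libraries, each above the immune-like level of its library. At 3 DPI the same cells had 1071 CPM of Meg3, 95.4 CPM of H19, the immune-like level, and 30.4 CPM of Igf2, against 683, 15.9 and 67.5 CPM in the uninjured nerve.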
